A study of Mus musculus with 36 samples.

Results

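The genes described here were 10 members of the AP-1 and immediate early stress response, chosen by name from the 21951 protein-coding genes of the mouse annotation: *Fos*, *Fosb*, *Fosl1*, *Fosl2*, *Jun*, *Junb*, *Jund*, *Atf3*, *Egr1* and *Myc*. For each, the K4me3 and K27me3 peaks within 3 kb of a transcription start site (TSS) were read in every mouse. K4me3 marks active promoters, and K27me3 is the repressive mark laid down by EZH2, the catalytic subunit of Polycomb repressive complex 2. The comparison reported here asks how loss of EZH2 activity changes both marks in the adult pancreas. ChIP-Seq was carried out on whole pancreata 22 days after the first gavage with tamoxifen at 2 to 4 months of age, and values are given for 6 mice, 3 of each of 2 genotypes.

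Control mice are given as Wildtype in the labels, and the study describes its controls as C57BL/6 mice or mice that carried only the Mist1creERT allele. EZH2ΔSET mice carried Mist1creERT/+ and were homozygous, per the study, for an *Ezh2* allele whose SET domain, the methyltransferase part, is removed by Cre. All mice, controls included, received tamoxifen. Cre driven from *Mist1* acts in acinar cells, while the chromatin came from the whole organ, so other pancreatic cells kept their alleles in every sample. The labelled tissue was checked at marker genes. All 14 acinar markers, *Cpa1* and *Ptf1a* among them, had K4me3 in all 6 mice. No K4me3 peak lay at *Ins1*, *Ins2*, *Gcg* or *Sst*, the islet hormone genes, or at *Csf1r*, *Adgre1* and *Itgam* of macrophages in any of them. Genes of other cell types were marked too. K4me3 was in all 6 mice at 3 of 5 duct markers (*Krt19* and *Sox9* among them), 1 of 7 islet markers (*Pax6*), 1 of 4 endothelial markers (*Kdr*) and 2 of 5 fibroblast markers (*Col1a1* and *Pdgfra*). It was in some mice but not in all at *Neurod1* of islets and at *Ptprc* and *Cd3e*, markers of leukocytes and T cells. The part of these cells in the results was not tested.

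AP-1 is a dimer of a FOS protein with a JUN protein, or of JUN proteins with each other, and binds short DNA elements in promoters and enhancers. *Fos*, *Fosb*, *Jun*, *Junb*, *Egr1*, *Atf3* and *Myc* belong to the immediate early genes, which growth factors and stress switch on within minutes without new protein synthesis, in large part through the ERK and JNK kinases. Such genes are often short, and their promoters usually lie open and marked with K4me3 before any signal arrives. Acinar cells are known to induce them on injury. A peak list gives where a mark passed the threshold of the peak caller and over how many bases. It gives no transcript level.

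RefSeq promoters, from 250 bases before to 50 after the start site on GRCm38.p6, were at hand for 7 of the 10 genes: *Fos*, *Fosb*, *Fosl2*, *Jun*, *Junb*, *Jund* and *Atf3*. The 150 bases upstream of the start are printed for the 4 to which results below return, those with the lowest unadjusted p-values for K4me3 width (*Fos* and *Junb*) and those with K27me3 near a start site (*Fosb* and *Atf3*). Capitals mark TGACG, the first bases of the cyclic AMP response element that ATF and CREB factors bind, on either strand, and the TATA box (TATAAA or TATATA). The stretches run 5′ to 3′ in the direction of transcription and lie at chr12:85473740-85473889 on the plus strand for *Fos*, and on the minus strand at chr7:19310046-19310195 for *Fosb*, chr8:84978749-84978898 for *Junb* and chr1:191183334-191183483 for *Atf3*.
Fos: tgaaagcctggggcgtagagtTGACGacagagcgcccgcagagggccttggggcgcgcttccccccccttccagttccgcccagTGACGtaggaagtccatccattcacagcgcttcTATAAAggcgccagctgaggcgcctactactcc
Fosb: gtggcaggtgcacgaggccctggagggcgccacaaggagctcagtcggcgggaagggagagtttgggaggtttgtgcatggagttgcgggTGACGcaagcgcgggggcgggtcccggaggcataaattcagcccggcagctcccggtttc
Junb: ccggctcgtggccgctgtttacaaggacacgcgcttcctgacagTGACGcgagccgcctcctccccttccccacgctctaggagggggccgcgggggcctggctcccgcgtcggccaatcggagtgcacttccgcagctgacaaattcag
Atf3: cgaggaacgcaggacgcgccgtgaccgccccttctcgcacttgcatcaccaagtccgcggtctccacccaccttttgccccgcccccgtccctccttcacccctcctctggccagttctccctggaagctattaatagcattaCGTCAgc

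TGACG occurred in 4 of the 7 promoters (*Fos*, *Fosb*, *Junb* and *Atf3*), and in 20.8% of all 32851 RefSeq promoters of this length, on either strand. *Fos* held it at 2 places. The whole element TGACGTCA, which contains TGACG, was in none of the 7 and in 1.8% of all promoters. The AP-1 element itself, TGACTCA or TGAGTCA, was in none of the 7 and in 5.2% of all, and the CArG box of serum response factor was in none and in 1.6%. Bases more than 250 upstream of the start were not searched, nor were *Fosl1*, *Egr1* and *Myc*, so elements there would be missed. TGACATCA, close in letters to the AP-1 site, was in *Jun* and in 3.6% of all promoters. A TATA box was in *Fos* and *Junb* and in 17.1% of all. In *Fos* it lay at -33 to -28 from the start, while the match in *Junb* began at the start base itself and so is not in the printed stretch. The GC box GGGCGG, bound by SP1, was in 5 of the 7 (*Fos*, *Fosb*, *Fosl2*, *Jun* and *Atf3*), against 35.7% of all promoters, with 5 copies in *Atf3*. The observed to expected ratio of CpG passed 0.6, a usual mark of CpG islands, in 5 of the 7, against 35.8% of all promoters. It was 0.59 in *Jun* and 0.18 in *Jund*. The *Jund* window rests on a RefSeq start at chr8:70697739, upstream of the GENCODE start at 70698949. The promoter window lay inside the K4me3 peak in all 6 mice for 6 of the 7 genes and in 5 mice for *Jund*.

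Before the results, some facts of the libraries bear on them. The lists held 17400 to 25886 K4me3 peaks and 21420 to 31274 K27me3 peaks per mouse, and no depth, since the deposited values are positions only. Control mouse 2 stood apart, with the fewest peaks of both marks and both marks within 3 kb of a TSS at 2718 protein-coding genes, against 471 to 1076 in the other 5 mice. A K4me3 peak lay at *Xist*, which is expressed from the inactive X of females, in 5 mice, which had 5637 to 7367 K27me3 peaks on chromosome X. EZH2ΔSET mouse 2 had none at *Xist*, K4me3 at 4 of 4 genes of the Y chromosome and 17 K27me3 peaks on chromosome X. The labels give no sex. Values without control mouse 2 or EZH2ΔSET mouse 2 stand beside the main differences below.

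All 10 genes had a K4me3 peak within 3 kb of a TSS in all 6 mice. Over the 21951 protein-coding genes, the share with such a peak in all 3 mice was 57.9% in control and 60.8% in EZH2ΔSET tissue. The width of the peak, taken as the widest that touched the window, ordered the genes. Their mean widths over the 6 mice were 6395 bp ± 319 (SD, n = 6 mice) for *Myc*, 6345 bp ± 249 for *Fosl2*, 6202 bp ± 402 for *Jun*, 6115 bp ± 657 for *Junb*, 4725 bp ± 175 for *Atf3*, 4592 bp ± 313 for *Jund*, 3566 bp ± 142 for *Fos*, 3298 bp ± 593 for *Egr1*, 2784 bp ± 99 for *Fosb* and 1182 bp ± 140 for *Fosl1*. The ranges of the first 4 over the mice overlapped, as did those of *Atf3* and *Jund* and those of *Egr1* with *Fos* and with *Fosb*, while *Fosl1* was below every other gene in every mouse. Over the 12478 genes with a peak in all 12 mice of the series, the median width in these 6 mice was 2356 bp and the 90th percentile 4332 bp. Thus 9 of the 10 genes were above the median and 6 above the 90th percentile.

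**Figure D1:**
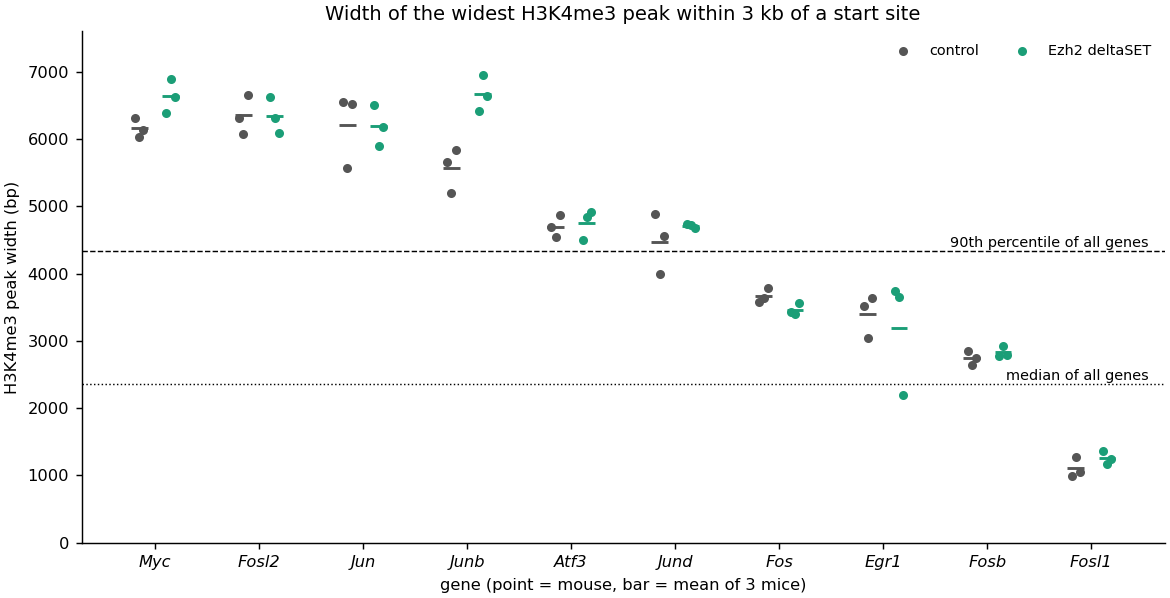
Width in bp of the widest K4me3 peak within 3 kb of a TSS of each gene, with 1 point per mouse, a bar at the mean of each genotype of 3 mice, and dotted and dashed lines at the median and 90th percentile of 12478 genes. *Myc*, *Fosl2*, *Jun* and *Junb* are 5203 bp or wider in every mouse, *Fosl1* is 1356 bp or narrower, and 1 mouse stands out at *Egr1*.

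Among the FOS genes, *Fosl2*, which codes for FRA2, had the widest mark, at 6077 to 6655 bp in the 6 mice. It lies at chr5:32135801-32157842 on mm10 (plus strand), and the peak reached 3062 bp upstream and 3282 bp downstream of the start on average. *Fos* (chr12:85473890-85477273, plus strand), the prototype of the family, had 3404 to 3789 bp, with more upstream of the start (2194 bp) than downstream (1371 bp). *Fosb* (chr7:19302696-19310051, minus strand) had 2634 to 2927 bp, mostly downstream, and the smallest variation of the 10, a coefficient of variation (CV) of 3.6%. *Fosl1* (chr19:5447547-5455946, plus strand) codes for FRA1, the FOS protein best known as a lasting target of ERK in tumour cells. Its peak was the narrowest in every mouse, at 990 to 1356 bp, and on average at percentile 7.4 of all widths.

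Among the JUN genes, *Jun* (chr4:95049034-95052222, minus strand) and *Jund* (chr8:70698949-70700616, plus strand) were covered over their whole length in every mouse, and the peak ran on past the end of the gene. *Jund* is the member known for steady rather than induced expression. *Junb* (chr8:84974484-84978718, minus strand) was covered over 82.8% on average, from 71.9% to 99.2%. At *Jun* and *Jund* the peak took in the start of an antisense gene in all 6 mice, *Junos* at 688 bp and Gm11175 at 740 bp from the start, and at *Fosl2* that of Gm10463 at 2630 bp. Chromatin carries no strand, so K4me3 of the 2 genes of such a pair cannot be told apart.

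*Myc* (chr15:61985391-61990374, plus strand), the growth regulator that AP-1 and ERK signals reach, had K4me3 over 81.0% of its body or more. The peak began close to the same base in every mouse, 1974 bp ± 59 (SD, n = 6) upstream of the start, while its far edge varied, at 4420 bp ± 311 downstream. *Atf3* (chr1:191170296-191218039, minus strand), a stress-induced repressor of the ATF family, was marked at its proximal start at 191183340, mostly upstream of it (3563 bp against 1161 bp). No K4me3 peak lay within 3 kb of the distal *Atf3* start at 191218039 in any of the 6 mice. *Egr1* (chr18:34859823-34864984, plus strand), a zinc finger factor downstream of ERK, had most of its mark downstream of the start (2877 bp against 420 bp).

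**Figure D2:**
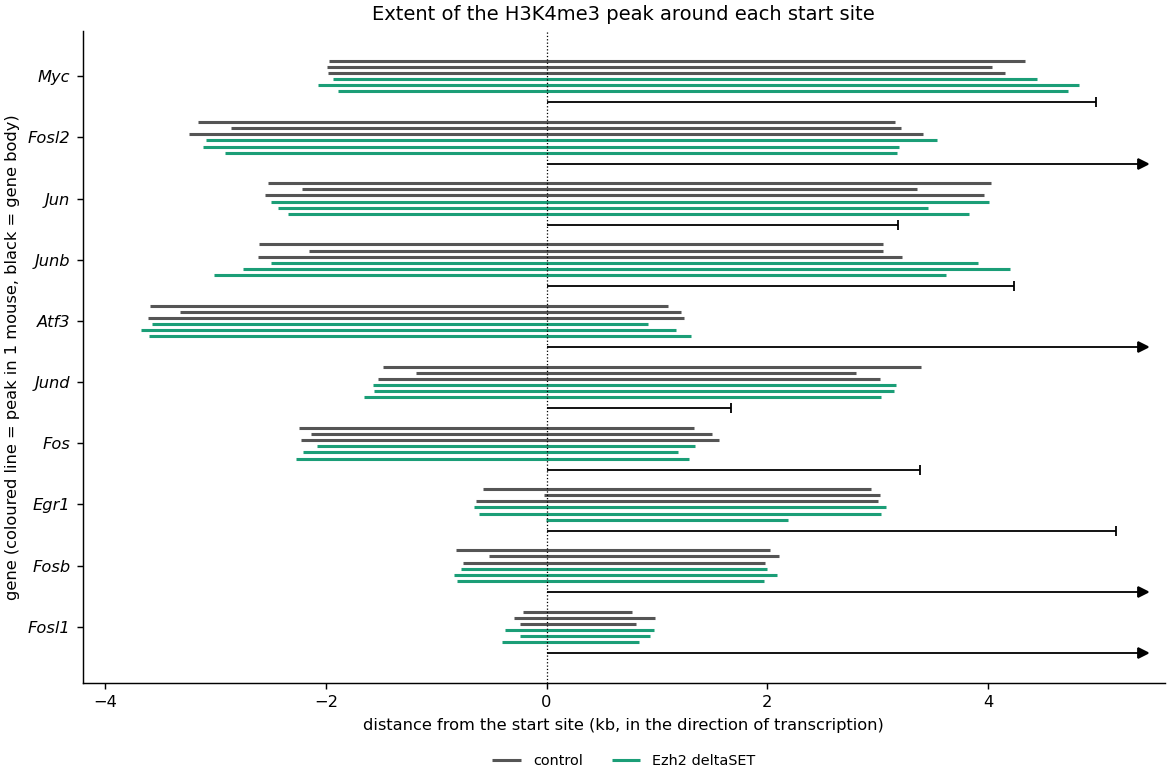
Extent of the K4me3 peak in kb from the TSS of each gene, with 1 coloured line per mouse and a black line for the gene body, which ends in an arrow where it runs beyond the plot. Marks at *Jun* and *Jund* pass the end of the gene, those at *Atf3* and *Fos* lie mainly upstream, and *Egr1* in EZH2ΔSET mouse 3 ends 2192 bp downstream.

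The 10 genes had a median length of 5073 bp against 24231 bp for genes with K4me3 in every mouse, with *Atf3* (47744 bp) and *Fosl2* (22042 bp) the longest of them. K4me3 covered a median of 48.2% of their bodies, against 7.3% over all 12478 genes and 45.3% over the 1452 of these that were shorter than the members' median. Those short genes had a median width of 2265 bp, and the 10 genes 4659 bp. Widths also varied little between mice, with a median CV of 5.7% for the 10 genes, 8.9% for all genes and 13.8% for genes above the 90th percentile of width.

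The exceptions were 3 genes with a CV above 10%: *Egr1* (18.0%), *Fosl1* (11.9%) and *Junb* (10.7%). At *Egr1* the spread came with 1 mouse. Its peak measured 2196 bp in EZH2ΔSET mouse 3 and 3045 to 3737 bp in the other 5, and in that mouse the far edge lay 2192 bp from the start, whereas it was at least 2936 bp in each of the others. The upstream edge in that mouse lay 3 bp from the start, near the 23 bp of control mouse 2, against 579 to 657 bp in the other 4. At *Fosl1* the widths of 990, 1278 and 1046 bp in control mice overlapped the 1356, 1176 and 1243 bp of EZH2ΔSET mice. The widths of *Junb* are given next.

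Widths were compared between the genotypes with limma over the 12478 genes, on the log2 scale after centring each library on its median, with Benjamini-Hochberg adjustment over all genes. None of the 10 genes passed an adjusted p of 0.05, and 2 had an unadjusted p under 0.05. Over all genes, 6 passed (0.0481%) and 765 had an unadjusted p under 0.05. The 10 genes had a median log2 difference of -0.02 in EZH2ΔSET tissue against control, beside 0.01 over all genes, and 4 of them were above 0.

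*Junb*, an AP-1 subunit that often restrains growth where JUN drives it, came nearest to a difference. Its peak measured 5661, 5203 and 5837 bp in control mice 1 to 3 and 6408, 6946 and 6633 bp in EZH2ΔSET mice. Every EZH2ΔSET mouse was above every control mouse. The log2 difference was 0.21 ± 0.08 (SE), with a limma unadjusted p of 0.0229 and an adjusted p of 0.781. It was 0.18 ± 0.09 without EZH2ΔSET mouse 2 and 0.21 ± 0.08 without control mouse 2, 0.26 ± 0.10 without centring and 0.14 ± 0.09 with quantile normalization. Most of the difference was at the edge inside the gene, which lay 3911 bp ± 288 (SD, n = 3) from the start in EZH2ΔSET mice against 3104 bp ± 98 in control. The edge upstream lay 2751 bp ± 256 and 2462 bp ± 265 from the start, and these ranges overlapped.

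*Fos* was narrower in EZH2ΔSET tissue by a margin that also failed the correction. Its peak measured 3581, 3639 and 3789 bp in control mice and 3426, 3404 and 3559 bp in EZH2ΔSET mice, which do not overlap. The log2 difference was -0.13 ± 0.05 (SE), with a limma unadjusted p of 0.0243 and an adjusted p of 0.781. It was -0.12 ± 0.06 without EZH2ΔSET mouse 2 and -0.09 ± 0.05 without control mouse 2, -0.08 ± 0.06 without centring and -0.18 ± 0.07 with quantile normalization. The upstream edge was nearly the same, at 2200 bp ± 57 (SD, n = 3) in control and 2188 bp ± 95 in EZH2ΔSET mice, and the edge inside the gene lay at 1469 bp ± 119 and 1274 bp ± 76.

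*Myc* had 6309, 6032 and 6133 bp in control and 6380, 6896 and 6618 bp in EZH2ΔSET mice, so that widths as measured did not overlap. The difference lay at the far edge, 4446 to 4826 bp from the start in EZH2ΔSET mice and 4038 to 4335 bp in control. The near edge overlapped, at 1894 to 2069 bp against 1973 to 1993 bp. The separation did not survive scaling. Divided by the median width of all genes in the library, *Myc* came to 2.716, 2.808 and 2.533 in control and 2.662, 2.899 and 2.819 in EZH2ΔSET mice, and the groups overlap. The log2 difference was 0.06 ± 0.06 (SE) with centring (limma, adjusted p = 0.833) and 0.11 ± 0.07 without it (limma, adjusted p = 0.755), and quantile normalization turned it to -0.03 ± 0.08 (limma, adjusted p = 0.929). With centring it was 0.09 ± 0.06 without control mouse 2 and 0.03 ± 0.07 without EZH2ΔSET mouse 2.

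Taken as widths without any scaling, 3 of the 10 genes did not overlap between EZH2ΔSET and control mice (*Junb* and *Myc* wider, *Fos* narrower), where 11.6% of all genes did not. Divided by the library median it was 2 of 10 (*Junb* wider, *Fos* narrower), where 11.7% of all genes did not. Without control mouse 2 the counts were 5 (*Fosl1* wider and *Jun* narrower in addition, 23.4% of all genes) and 3 (*Fosl1* in addition, 24.1%). Without EZH2ΔSET mouse 2 the same 3 and 2 genes were apart, against 21.5% and 21.9% of all genes.

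**Figure D3:**
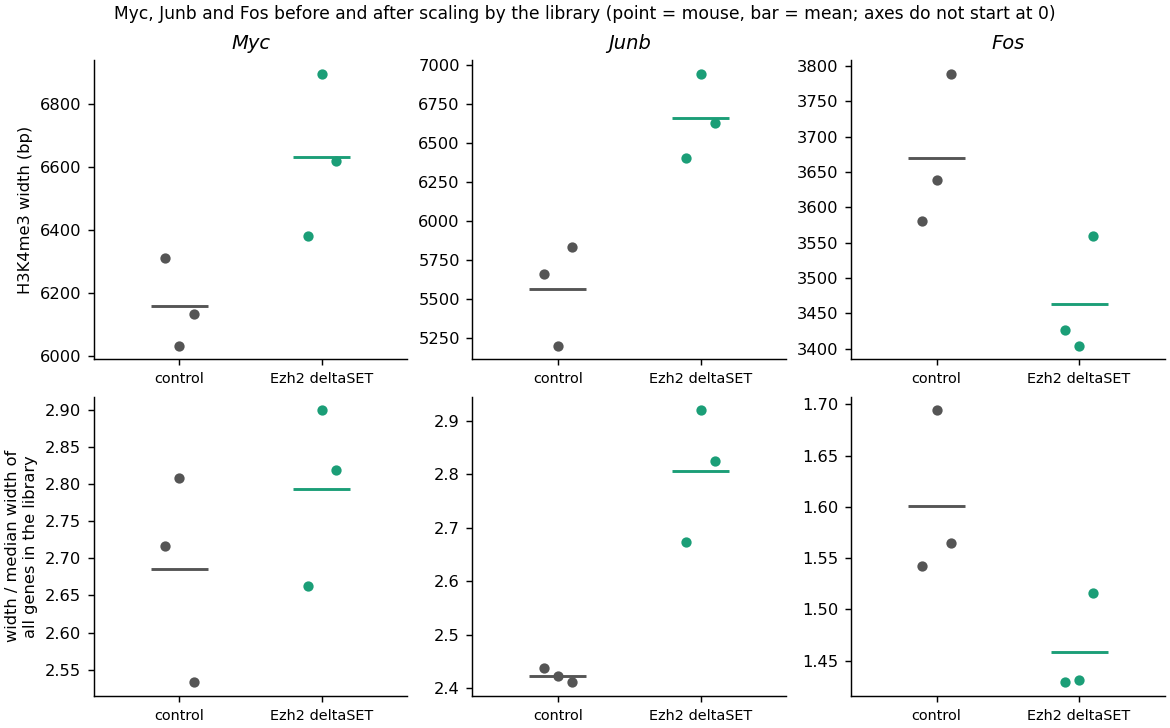
K4me3 width of *Myc*, *Junb* and *Fos* in bp (upper row) and divided by the median width of all genes in the same library (lower row), with 1 point per mouse and a bar at the mean of 3 mice. At *Myc* the EZH2ΔSET mice are above control in the upper row and overlap it in the lower row, while at *Junb* they stay above and at *Fos* below control in both.

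The other genes overlapped between the genotypes. *Jun*, the JUN protein that JNK activates, had 6550, 5569 and 6514 bp in control and 6508, 5894 and 6175 bp in EZH2ΔSET mice. *Atf3* had 4688, 4545 and 4863 bp in control and 4498, 4847 and 4910 bp in EZH2ΔSET mice. *Jund* ranged from 3990 bp in control mouse 2 to 4879 bp in control mouse 1, and the 3 EZH2ΔSET mice lay between these at 4680 to 4740 bp. *Fosl2* had nearly equal means, 6350 bp ± 290 (SD, n = 3) in control and 6341 bp ± 266 in EZH2ΔSET tissue, while *Fosb* had 2740 bp ± 107 and 2829 bp ± 85 and *Fosl1* 1105 bp ± 153 and 1258 bp ± 91. For *Egr1* the log2 difference was -0.18 ± 0.19 (SE; limma, adjusted p = 0.827), and without EZH2ΔSET mouse 3, the one with the narrow peak, it turned to 0.07 ± 0.13.

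The 95% intervals give the precision of these comparisons. The width ratio of EZH2ΔSET to control lay between 0.907 and 1.098 for *Fosb*, between 0.892 and 1.07 for *Atf3*, between 0.882 and 1.056 for *Jun* and between 0.878 and 1.061 for *Fosl2*. The intervals were widest for *Egr1* (0.664 to 1.179) and *Fosl1* (0.859 to 1.423).

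**Figure D4:**
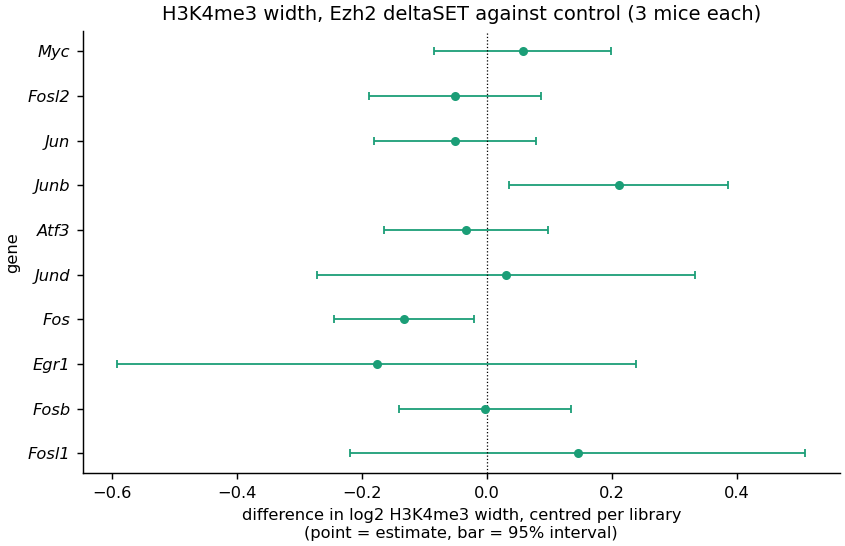
Difference in log2 K4me3 width between EZH2ΔSET and control mice for each gene, centred per library, with points for limma estimates and bars for 95% intervals (3 mice per genotype). The intervals of *Junb* (0.04 to 0.39) and *Fos* (-0.24 to -0.02) exclude 0, and no gene passed the adjusted threshold.

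No gene of the 10 had K27me3 within 3 kb of a TSS in all 3 mice of either genotype. The share over protein-coding genes was 5.78% in control and 7.38% in EZH2ΔSET tissue, so that a count of 0 of 10 is near the background. Over the 10 genes and 6 mice, such a peak was present 2 times, at *Fosb* and at *Atf3*, both in control mouse 2. That is the library with the most genes under both marks, and without it no such peak remained. Control mouse 2 had K27me3 within 3 kb of a TSS at 5395 of 21951 protein-coding genes, against 2333 to 3423 in the other 5 mice. The *Fosb* peak measured 5001 bp, the smallest width the lists hold, and began 1602 bp upstream of the start. The nearest K27me3 in the other 5 mice was 365.6 kb away or more.

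The *Atf3* locus carried K27me3 in 2 control mice. In control mouse 2 a domain of 20062 bp (chr1:191175924-191195985) covered the proximal start and the whole K4me3 peak there, and the promoter printed above. No other mouse of the 6 had K27me3 over that start. A separate domain lay farther upstream in control mice 2 and 3. In control mouse 3 it spanned 5001 bp between the 2 starts, inside the first intron of the long transcript. In control mouse 2 it spanned 14379 bp (chr1:191205041-191219419), from that intron across the distal start. The stretch common to both was chr1:191207436-191212436, from 5.6 to 10.6 kb downstream of the distal start. Neither domain was present in an EZH2ΔSET mouse or in control mouse 1.

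Counted over the study's wider K27me3 window, which reaches back 100 kb before a TSS and 3 kb past it, *Atf3* had K27me3 in 2 of 3 control and 0 of 3 EZH2ΔSET mice. A two-sided Fisher's exact test gave p = 0.4, where 3 mice against 3 cannot go below 0.1. Without control mouse 2 it was 1 of 2 control mice, by the peak of 5001 bp in control mouse 3. In that window none of the 10 genes had K27me3 in all 3 mice of a genotype, and 20.0% of protein-coding genes had it in control and 24.5% in EZH2ΔSET tissue. Of the genes other than *Atf3*, *Junb* had the nearest K27me3, at a median over the 6 mice of 24.9 kb from the start (21.5 to 205.3 kb). It lay downstream of the gene, and so outside that window, in every mouse but control mouse 1, which had the 205.3 kb. At *Atf3* the median was 1058.2 kb, with 0 and 5.6 kb in control mice 2 and 3. For the rest the median distance was 163.3 kb at *Myc*, 268.9 kb at *Jund*, 439.2 kb at *Fosb*, 446.2 kb at *Fosl1*, 451.4 kb at *Fos*, 670.8 kb at *Jun*, 691.4 kb at *Fosl2* and 1217.7 kb at *Egr1*.

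**Figure D5:**
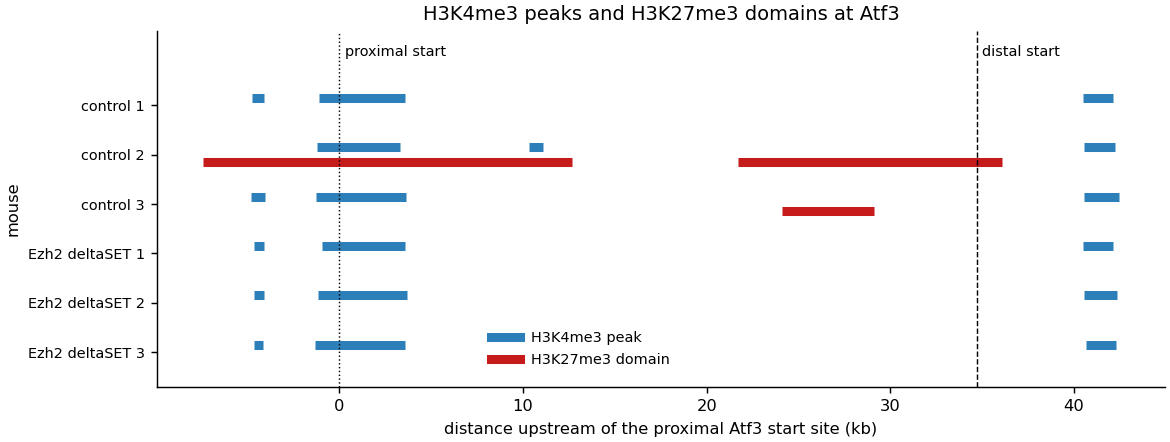
Map of K4me3 peaks (blue) and K27me3 domains (red) at *Atf3* in each of the 6 mice, in kb upstream of the proximal start, with lines at the proximal and distal starts. The K4me3 peak at the proximal start is in every mouse, K27me3 covers part of the first intron in control mice 2 and 3, and control mouse 2 alone has K27me3 over the proximal and the distal start.

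The wider system around these genes was read from a list of 76 partner names, of which 74 matched a gene: dimer partners of AP-1, ATF and MAF factors, the MYC network and other immediate early genes. K4me3 within 3 kb was present in all 6 mice at 70 of the 74, in 4 mice at *Batf*, and in none at *Batf3*, *Egr4* and *Npas4*. *Batf* and *Batf3* are AP-1 subunits of lymphoid and myeloid cells, and *Npas4* and *Egr4* are best known as activity genes of neurons. Of the 70, 27 were above the 90th percentile of width. The widest were *Nr4a2* (9792 bp), an orphan nuclear receptor gene, *Zfp36l1* (9750 bp), which codes for an mRNA decay factor, and *Nfe2l1* (8958 bp), a partner of small MAF proteins. Among the narrowest were *Ccn2* (835 bp), a matrix protein gene, and *Ptgs2* (1001 bp), the inducible cyclooxygenase. In limma, 0 of the 70 passed, with 4 at an unadjusted p under 0.05, and their median log2 difference was -0.02. Without control mouse 2, 1 of the 70 passed, *Dusp1*, which codes for a phosphatase of JNK, p38 and ERK, with a log2 difference of -0.73 ± 0.11 (SE; limma, adjusted p = 0.0314), against -0.58 ± 0.13 (limma, adjusted p = 0.514) with all mice. Over all genes, 34 passed without control mouse 2. None of the partners passed in the other alternatives run.

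K27me3 lay within 3 kb of a TSS at 2 of the 74 partners in all 3 control mice, beside 5.78% of protein-coding genes, and at 4 in all 3 EZH2ΔSET mice, beside 7.38%. No such peak was found at 61 of the 74 in any of the 6 mice, a count for which the share over all genes was not taken. *Creb5* and *Egr4* had it in all 6 mice. *Maf* had it in 1 of 3 control and 3 of 3 EZH2ΔSET mice and *Nr4a3* in 2 of 3 and 3 of 3. *Nr4a3* combined this with a K4me3 peak of 5568 bp in the mean, in the width range of *Junb*.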

How the data were processed

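H3K4me3 and H3K27me3 ChIP-Seq peaks of 12 mice (3 per genotype) were analyzed. Control and EZH2ΔSET mice are described, and the 6 mice of the other genotypes enter only the fit and its gene filter. These genotypes and 1 of the narrowest partner genes are otherwise not reported here. Each deposited list holds positions only (chromosome, start and end on mm10), with no count or signal, so depth is unknown and intervals cover the spread between mice. Per the study's methods and the labels, the authors checked reads with FastQC, aligned them with Bowtie2 and called peaks per mouse against its input with HOMER in histone mode (versions not given in the sources used here). The narrowest deposited peak was 501 bp for K4me3 and 5001 bp for K27me3, and adjoining K27me3 peaks were merged into domains. Peaks were placed by GENCODE vM21 start sites. Log2 width of the widest K4me3 peak was centred on the library median and tested with limma 3.58.1 in R 4.3.3 (empirical Bayes with trend, genotype only) over genes with a peak in all 12 mice. The interval code and the limma step were tested on simulated data. The members and gene lists were chosen with earlier results of these data known. All 10 members are named. Partner genes are named if they passed limma, had K27me3 in all 3 mice of a genotype, or were among the 3 widest or 3 narrowest. *Batf*, *Batf3*, *Npas4*, *Dusp1* and *Dusp5* were named after their values were seen. Alternatives covered scaling, window, width measure, gene filter, merging, samples, pairing and each mouse left out. The overlap counts and *Dusp* values without control mouse 2 or EZH2ΔSET mouse 2 were added after seeing the data. Deviations of same-numbered mice had r from 0.08 to 0.17, above 0.1 in 1 of 3 pairs, and whether such mice shared a batch is not known.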

Additional observations from a re-analysis of the deposited data

How the results depend on the processing

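None of the 10 genes passed limma under any alternative, each mouse left out included (lowest and highest count 0). All 10 kept K4me3 in all 3 mice of both genotypes, except that peaks of at least 1 kb left 9 in control tissue. Without any one mouse of a genotype, 10 had K4me3 and 0 had K27me3 in all of the remaining mice of that genotype. Of 160 alternative values of members' width differences, 148 kept their sign and 12 did not, and no value passed the threshold.

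The count over all genes, 6, moved more, and the cause was not tested. It was 3 without centring, 2 for all protein-coding genes with a pseudocount of 100 bp, 11 for all GENCODE genes and 10 with the compared mice only. The replicate block gave 0. The labels number the mice as biological replicates and do not say whether equal numbers share a batch. The block passed no member. With a mouse of the 12 left out, the count ran from 0 to 34. It was highest without control mouse 2, 1 without control mouse 1 or EZH2ΔSET mouse 1, and 0 without EZH2ΔSET mouse 2 or 3 (limma, with 668 and 542 genes at an unadjusted p under 0.05). Of the 6 mice that enter the fit only, leaving out 1 gave 3 and leaving out another 0 (732 at an unadjusted p under 0.05).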

Other observations

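A second K4me3 peak of 501 to 771 bp lay 4.1 to 4.8 kb downstream of the proximal *Atf3* start in control mice 1 and 3 and all 3 EZH2ΔSET mice. Another of 783 bp lay 10.3 to 11.1 kb upstream of that start in control mouse 2. In all 6 mice a peak of 1606 to 1891 bp lay 40.5 to 42.4 kb upstream of the proximal start, beyond the distal one. The smallest of these peaks are at the narrowest width the lists hold, and none was tested.

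Of the immediate early genes outside the 10, *Dusp1* and *Dusp5* were picked after their values were seen. *Dusp1*, a phosphatase gene for JNK, p38 and ERK, had a K4me3 peak of 4421, 2901 and 4309 bp in control mice and 2744, 2749 and 2425 bp in EZH2ΔSET mice, so that all 3 lay below control. Its log2 difference was -0.58 ± 0.13 (SE), which failed the correction (limma, unadjusted p = 0.00121, adjusted p = 0.514). Without control mouse 2, the narrowest of the control mice, it was -0.73 ± 0.11 and passed (limma, adjusted p = 0.0314), and without EZH2ΔSET mouse 2 it was -0.61 ± 0.15 and did not (limma, adjusted p = 0.674). *Dusp5*, an ERK phosphatase gene, had 1857, 2362 and 1925 bp in control and 1750, 1544 and 1682 bp in EZH2ΔSET mice, with a log2 difference of -0.35 ± 0.16 (limma, adjusted p = 0.781). It was -0.19 ± 0.15 without control mouse 2, the widest of the control mice, and -0.29 ± 0.19 without EZH2ΔSET mouse 2 (limma, adjusted p = 1 and 0.853).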
